A study of Sus scrofa with 45 samples.

Results

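Whole blood of pigs fed a high-fat, high-cholesterol diet (HFCD) for 10 weeks was compared with whole blood of pigs on standard feed over the same weeks. The arrays were chosen by their labels alone: the 4 whole blood arrays labelled HFCD and the 4 labelled control at 10 weeks, 8 of the 45 arrays in the series. The study fed male Clawn miniature pigs from 12 weeks of age and asked how blood expression follows diet over time. Its remaining arrays hold a diet with added sucrose (HFCSD), later periods of 19 and 27 weeks, and separated white blood cells. The control group received standard dry feed and the HFCD group a feed with lard and cholesterol, and both groups were of the same sex, breed and starting age. The methods name 5 pigs a diet, while 4 arrays a group were deposited at 10 weeks, and the labels do not say which pig gave which array. Blood was drawn into tubes that stabilise RNA and was not sorted, so each array reads a mixture of leukocytes, platelets and red cell precursors.

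Each array carried 43603 probes of 60 bases, read in 1 colour. Values are log2 intensities (background subtracted by the scanner software) after quantile normalization over all 45 arrays, and differences are HFCD minus control. The software marked 43.3, 43.4, 35.4 and 41.7% of spots as well above background on control arrays 1 to 4. On HFCD arrays 1 to 4 it marked 49.5, 43.1, 45.4 and 53.3%. HFCD array 4 was the highest and control array 3 the lowest, and the groups overlapped, because HFCD array 2 lay below control arrays 1 and 2. The means were 40.9% (SD 3.79) and 47.8% (SD 4.51), a difference of 6.87 points, with an exact permutation p of 0.0857, two-sided, where the smallest p that 70 assignments allow is 0.0286. Without HFCD array 2 the difference was 8.43 points, with an exact permutation p of 0.0286. Within the 3 slides the difference was 6.21, 0.847 and 14.7 points. Slide 1 held control array 1 and HFCD array 1, and slide 2 held control array 2 and HFCD arrays 2 and 3. Slide 3 held control arrays 3 and 4 and HFCD array 4. All values given within slides thus rest on 1 or 2 arrays a group. The part of this signal difference in the results that follow was not tested beyond a fit with the share as a covariate.

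The blood label was checked against markers of blood cells. Of the neutrophil list 6 genes had a probe, and LTF and MMP9 were among 3 that were well above background on all 8 arrays. All 3 B cell genes with a probe were so on all 8 arrays, as were 11 of 14 genes of T and NK cells, 5 of 9 of monocytes, all 3 of eosinophils and basophils, and 9 of 11 of platelets. Of 6 erythroid genes with a probe, 2 were so on all 8 arrays, among them HBE1, and the probes for HBA and TFRC were well above background on none of the 8. The liver markers ALB, APOA1 and APOB were not well above background on any array, and 11 of 17 liver genes with a probe were at that level on none. Of other tissue markers, 4 of 23 skeletal muscle genes and 4 of 8 adipose genes were well above background on all 8 arrays. For smooth muscle and vessel wall it was 7 of 11.

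Cells cannot break down the sterol ring, and they guard against excess cholesterol by exporting it and by making less. Oxidised cholesterol activates the liver X receptors, which switch on the exporter ABCA1, while cholesterol in the endoplasmic reticulum holds back the transcription factor that drives the enzymes of its synthesis. In blood, monocytes take up modified lipoproteins, and leukocytes also answer interferons with a broad set of antiviral genes.

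Feeding HFCD for 10 weeks went with a rise in 4 probes and a fall in 1. ABCA1 was 5.21-fold higher, with a log2 difference of 2.38 (SE 0.22, 4 arrays a group), and 3 probes without a gene name were higher, 2 of them by 2.35 and 2.58 and 1, which no control array read well above background, by a size given below as a bound. Among probes well above background on every array of both groups, 2 rose and 1 fell. GUCY1B3, a subunit of the nitric oxide receptor soluble guanylate cyclase, fell by 1.48 (SE 0.19). Below that threshold, most probes of interferon-induced genes lay higher under HFCD, and all tested probes of cholesterol synthesis lay lower. Of 17766 probes tested, the 4 that rose are 0.0225% and the 1 that fell is 0.00563%, in limma with Benjamini-Hochberg adjustment at 0.05. An unadjusted p under 0.05 was reached by 967 probes that were higher (5.44%) and 809 that were lower (4.55%). These counts were 517 and 518 without HFCD array 1, and 1985 and 1820 without HFCD array 2. With the share of spots as a covariate they were 377 and 354. With probes well above background on every array of both groups, 693 were higher and 767 lower. All 4 HFCD arrays lay above all 4 control arrays for 526 probes (2.96%) and below them for 427 (2.40%). The median difference over all probes tested was 0.09, with 61.9% of them positive, and was 0.02, 0.08 and 0.19 within the 3 slides. Over all 43603 probes with no filter it was -0.00074, with 49.8% positive. It was 0.12 with slide as a block and 0.00 with the share of spots as a covariate. By the methods' t-test with the same adjustment, 0 probes passed, 1594 had an unadjusted p under 0.05, and the smallest adjusted p was 0.142. The count of 5 was 2 without HFCD array 1, 2 without HFCD array 3, and 2 with the share of spots as a covariate. It was 8 with only the 8 arrays in the fit (3 higher and 5 lower). Of the 59 probes whose values are given and followed through other settings, normexp background correction made the log2 difference over 1.5 times smaller in 32, and the share as a covariate moved 17 by as much. In unsorted blood, a lower level from fewer cells of a type and from less RNA per cell cannot be told apart. The number of arrays limits the precision.

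ABCA1, which moves cholesterol and phospholipid out of cells onto apolipoprotein A-I, read 9.63, 9.65, 9.26 and 9.48 on control arrays 1 to 4. On HFCD arrays 1 to 4 it read 11.89, 11.28, 12.22 and 12.15. Every HFCD array lay above every control array, with HFCD array 2 the lowest of the 4 and array 3 the highest. The adjusted p was 0.00121. The difference was 2.41 with slide as a block and 2.26, 2.10 and 2.78 within slides 1, 2 and 3. In every limma setting tried ABCA1 stayed past the threshold, also with each array left out in turn, though not by the methods' t-test. The sequence of its probe is shown because this is the only named gene that rose.
ABCA1: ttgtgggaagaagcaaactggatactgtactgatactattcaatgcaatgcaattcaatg

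In each of the 3 unnamed probes that rose, HFCD array 4 read highest and array 2 lowest. Probe A_72_P072951, which the array annotation calls unknown, read 6.31, 6.09, 6.18 and 6.19 on control arrays 1 to 4. Under HFCD it read 8.59, 7.86, 8.82 and 8.89. The groups lay far apart beside the spread within each, with HFCD array 2 lowest. Its difference was 2.35 (SE 0.22, adjusted p 0.00121), 2.42 with slide as a block, and 2.28, 2.25 and 2.70 within slides 1, 2 and 3. Probe A_72_P202657, annotated as an expressed pig sequence tag, read 5.04, 3.95, 4.92 and 4.46 on the control arrays. On the HFCD arrays it read 7.39, 6.35, 7.43 and 7.52. The HFCD values of arrays 1, 3 and 4 lay close together and array 2 lay lower, still above every control. The difference was 2.58 (SE 0.30, adjusted p 0.00866), 2.72 with slide as a block, 1.24 after normexp background correction, and 2.35, 2.94 and 2.83 within the slides. Only 2 of the 4 control arrays were well above background for it, so it was tested through the HFCD arrays only. Its size and adjusted p rest in part on control values that are not measured levels. This probe did not pass without HFCD array 1 (adjusted p 0.0616), without HFCD array 3 (0.0632), with no filter on dim probes (0.0527) or with the share of spots as a covariate (0.196). The sequences of these probes are given because they have no gene name to go by.
A_72_P072951: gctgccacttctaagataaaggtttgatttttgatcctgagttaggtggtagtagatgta
A_72_P202657: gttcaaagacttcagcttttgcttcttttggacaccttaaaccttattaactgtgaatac

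The third unnamed probe, A_72_P034336, lies outside the rule for named genes and was chosen after its values were seen, to account for all 5 probes. It read 3.41, 1.78, 2.75 and 3.31 on the control arrays, none of which was well above background. On the HFCD arrays it read 5.62, 4.68, 5.55 and 5.90, all well above background. Because a level under the detection limit is not a measured level, its fold is given only as a bound, taken against the level at which spots begin to be well above background on each control array: at least 2.40-fold higher, beside means of 2.81 and 5.44. It was tested only because the HFCD arrays were well above background, and its adjusted p of 0.0299 is set against control values that are not measured levels. That call was lost without control array 3 (0.134) or 4 (0.0515), without HFCD array 1 (0.177), 3 (0.108) or 4 (0.126), and in several other settings.

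**Figure D1:**
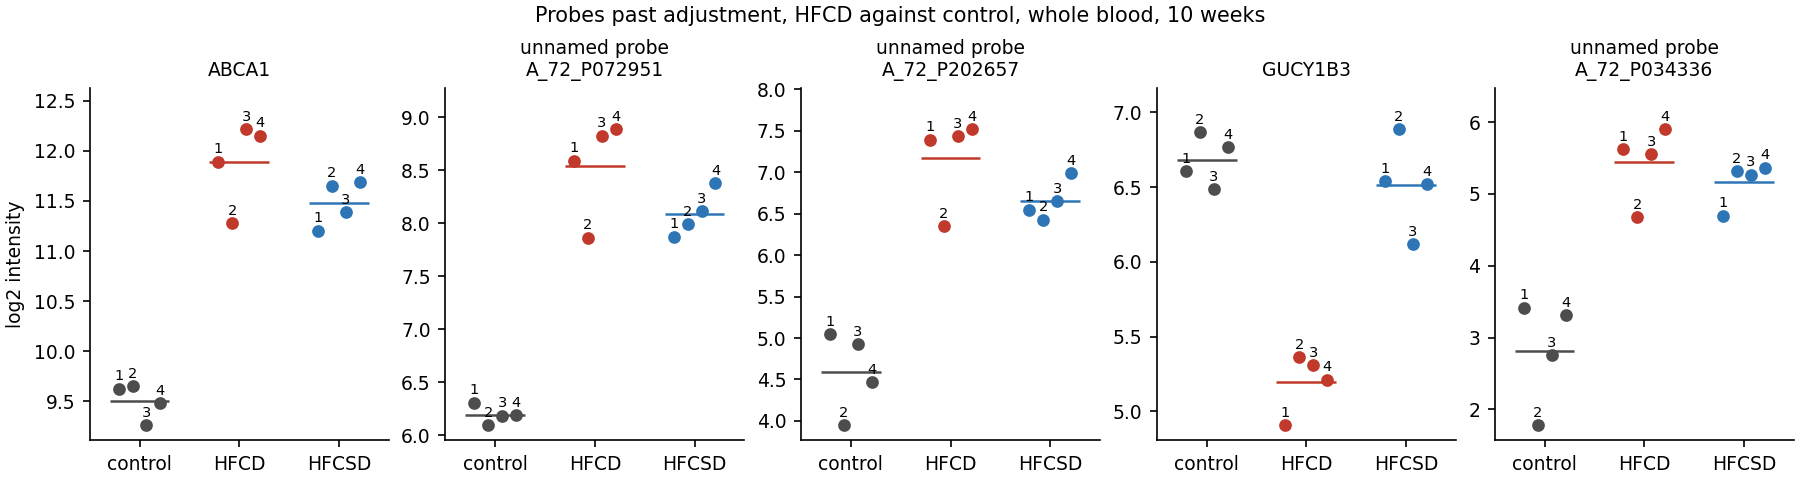
The 5 probes past adjustment, with log2 intensity on the vertical axis and the control, HFCD and HFCSD arrays of 10 weeks as numbered points; lines are group means. The ABCA1 probe lies at 9.26 to 9.65 in controls and at 11.28 to 12.22 under HFCD.

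Beside ABCA1, the sterol sensor of the same pathway was higher. NR1H3, the liver X receptor alpha that oxidised cholesterol activates, read 6.05, 5.87, 5.65 and 6.59 in controls. The HFCD arrays read 7.71, 6.75, 8.02 and 7.77. All HFCD arrays lay above all control arrays, with array 2 lowest. The difference was 1.52 (SE 0.31), which did not pass adjustment (adjusted p 0.216, unadjusted p 0.000382) except with all 45 arrays in 1 fit (0.0276). After normexp it was 0.97. Other probes of the gene gave 0.59 and 0.81, with groups that overlapped. Of 12 tested probes in the list of liver X receptor targets and cholesterol efflux, from 7 genes, 1 rose, 0 fell and 11 did not pass. There, 3 were higher and 0 lower at an unadjusted p under 0.05, and 2 lay above with 0 below. Among all probes tested, 5.44% were higher and 4.55% lower at that level, with 2.96% above and 2.40% below. The median of -0.01 was under the 0.09 of all probes tested, and it was 0.33, 0.35 and 0.03 within the slides and 0.07 with slide as a block. SREBF1, a transcription factor of lipid synthesis in the same list, differed by -0.49, and its other probe by -0.26, both with overlapping groups. The first was -0.88 with slide as a block. Its sign turned with the share of spots as a covariate (0.26) and without HFCD array 4 (0.0057).

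Enzymes of cholesterol synthesis lay lower under HFCD. SQLE, the squalene epoxidase that starts the sterol branch, read 7.25, 6.56, 7.84 and 7.33 in controls. On the HFCD side it read 5.78, 5.45, 6.21 and 5.80. All HFCD arrays lay below all control arrays, and control array 2 was the lowest of its group. The difference was -1.44 (SE 0.28, unadjusted p 0.000267, adjusted p 0.202), -1.33 with slide as a block and -1.47, -0.73 and -1.79 within slides. After normexp it was -0.78. It passed only with all 45 arrays in 1 fit (adjusted p 0.0455). CYP51, which removes a methyl group from lanosterol, differed by -0.84, and its other probe gave -0.85. Both CYP51 probes had all HFCD arrays below all controls. Over the list, 6 probes of 5 genes were tested, and 0 rose and 0 fell past adjustment. At an unadjusted p under 0.05, 3 were lower and 0 higher, and 3 lay wholly below. The shares over all probes tested were 4.55% lower at that level and 2.40% wholly below. The median was -0.83 beside 0.09 over all probes, -0.77 with slide as a block, and -0.75, -0.31 and -1.16 within slides. It was -0.34 after normexp background correction and -0.43 with no filter. Summed level in controls was 8.78, 8.24, 9.14 and 8.83, and in HFCD 8.02, 7.73, 8.07 and 7.90, with every HFCD array below every control. The sequence of the SQLE probe is given because SQLE is among the genes that the study names.
SQLE: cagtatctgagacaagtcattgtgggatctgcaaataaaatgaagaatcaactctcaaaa

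Lipid uptake and storage gave a mixed picture. CD36, a receptor for fatty acids and oxidised lipoprotein, read 8.59, 7.60, 7.12 and 7.28 in controls. It read 6.59, 6.62, 6.79 and 6.31 under HFCD, below all controls, with control array 1 well above the rest. The difference was -1.07 (SE 0.28, adjusted p 0.245), and another tested probe gave -0.39 with overlap. SCARB1, the receptor for high-density lipoprotein, differed by -0.58 (adjusted p 0.415) and its groups overlapped. PNPLA2, which releases fatty acids from stored triglyceride, differed by -0.88, and by -0.30 with the share of spots as a covariate, though its other tested probes gave -0.38, -0.49 and -0.13. In the fatty acid and lipid storage list 29 probes were tested, 0 passed, 2 were higher and 2 lower at an unadjusted p under 0.05, and the median was 0.09. In the sterol sensing list 8 were tested, 0 passed, 1 was lower at that level, and the median was -0.22. Of all probes tested, 5.44% were higher and 4.55% lower at that level.

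Interferon-induced genes lay higher on HFCD arrays 1, 3 and 4, while array 2 lay close to the controls. CXCL10, a chemokine that draws activated T cells, read 6.87, 6.32, 5.39 and 6.10 in controls. In HFCD blood it read 11.16, 7.26, 9.63 and 8.55. HFCD array 1 stood highest, array 2 lay just above the highest control, and the groups did not overlap. The difference was 2.98 (SE 0.73, unadjusted p 0.00154), not past adjustment (adjusted p 0.235). ISG15, a ubiquitin-like protein, read 13.20, 12.91, 12.53 and 13.23 in controls. It read 15.28, 13.41, 14.91 and 14.23 under HFCD, again with array 1 highest and array 2 nearest to controls. Its difference was 1.49 (SE 0.40, adjusted p 0.266). MX1, a GTPase that blocks virus replication, is read by a pair of probes, and the controls read 12.09, 12.70, 12.34 and 13.40 on the brighter. Under HFCD that probe read 15.20, 13.06, 14.73 and 14.50, with array 2 inside the range of the controls. The differences were 1.74 and 1.65 (adjusted p 0.235 and 0.243). Their sequences are shown because the probes overlap in sequence and so are not independent readings.
MX1 brighter probe: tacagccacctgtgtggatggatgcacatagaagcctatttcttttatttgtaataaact
MX1 other probe: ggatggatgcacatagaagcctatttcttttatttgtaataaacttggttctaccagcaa

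More genes of the list follow one by one. IFIH1, a cytoplasmic sensor of double-stranded RNA, differed by 1.61, with 2 control arrays well above background, and its other probes gave 1.11 and 0.80 with overlap. Without control array 3 the 1.61 was 1.05, and after normexp 0.50. ADAR, which edits adenosine in such RNA, read 5.32 to 5.78 in controls and 6.35 to 7.48 under HFCD, a difference of 1.25 with no overlap. After normexp the ADAR difference was 0.59. RSAD2, an antiviral enzyme, differed by 2.31 and LGALS9, a galectin, by 2.50, both with overlap, and none of these 4 passed adjustment. For LGALS9, 2 control arrays were well above background, normexp gave 0.82, and its other probes gave 1.59 and 1.61. OAS1, another antiviral enzyme, lies outside the naming rule and was chosen after its values were seen, as a member that lay lower. OAS1 differed by -1.09 on arrays that scattered widely, at 6.54 to 10.51 under HFCD. It was -0.54 without HFCD array 3, -1.86 without HFCD array 4 and -2.18 with the share of spots as a covariate.

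Over the interferon-induced list, 39 probes of 22 genes were tested, and 0 rose or fell past adjustment. At an unadjusted p under 0.05, 27 were higher and 0 lower, 9 lay wholly above the controls and 0 below, and 94.9% were positive. Over all probes tested, the shares were 5.44% higher and 4.55% lower at that level, 2.96% above, 2.40% below and 61.9% positive. With the share of spots as a covariate, 16 probes of the list were higher and 1 lower at that level. Of the 34 probes well above background on every array of both groups, 22 were higher and 0 lower, with a median of 0.77. The median was 0.94 beside 0.09 over all probes tested, 0.98 with slide as a block, and 1.21, 0.57 and 0.95 within slides 1, 2 and 3. The summed level was 14.68, 14.75, 14.43 and 14.94 on control arrays 1 to 4. On HFCD arrays 1 to 4 it was 16.59, 15.07, 16.12 and 15.79, with ISG15 the gene of brightest signal. HFCD array 2 lay nearest to the controls and array 1 highest. Across all probes, array 2 correlated on average at 0.967 with control arrays and at 0.945 with the other HFCD arrays, and most closely with control array 2 of the same slide, at 0.983, while genes are not independent replicates. Without HFCD array 2 the median of the list was 1.22, after normexp background correction it was 0.58, and with the share of spots as a covariate it was 0.85.

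**Figure D2:**
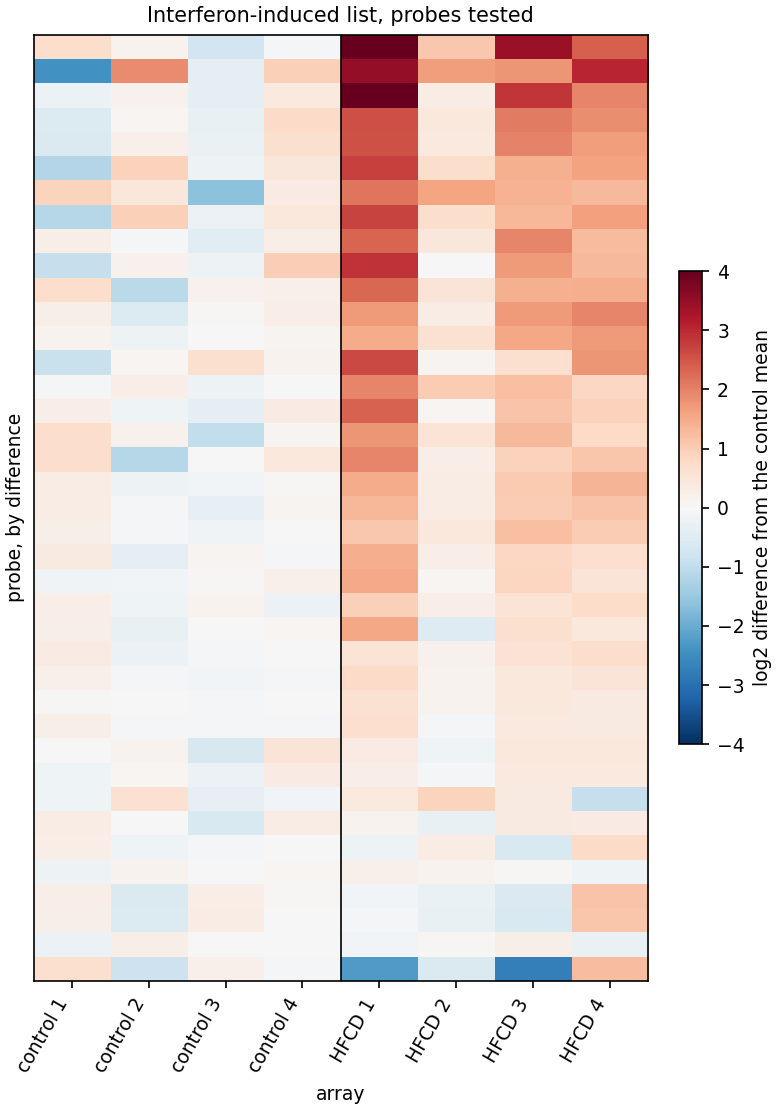
Each tested probe of the interferon-induced list, ordered by its difference, in the 8 arrays; colour is the log2 difference from the control mean, and shades stop at 4 in either direction. HFCD array 1 is darkest, and the list median was 0.94.

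The complement inhibitor that the study names, SERPING1, is read by a pair of tested probes. The probe A_72_P226002 read 9.46, 8.67, 9.27 and 9.48 in controls. Under HFCD it read 10.93, 9.502, 10.92 and 11.17. HFCD array 2 stood apart below the other HFCD arrays, and all 4 lay above all controls. The difference was 1.41 (SE 0.55), not past adjustment (adjusted p 0.433). The other tested probe gave 1.33 with no overlap, or 0.85 after normexp. Their sequences are shown as those of a gene the study names.
SERPING1 A_72_P226002: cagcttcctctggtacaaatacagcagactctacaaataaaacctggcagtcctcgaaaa
SERPING1 other probe: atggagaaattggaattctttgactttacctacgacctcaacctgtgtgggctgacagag

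Other genes of complement and clotting went either way. C2, which forms part of a complement convertase, read 7.70 to 8.82 in controls and 8.60 to 9.93 under HFCD, a difference of 1.30 with overlap. PROC, the anticoagulant protein C, differed by -1.05, or -0.29 after normexp, and 2 HFCD arrays were well above background for it. Neither passed adjustment. Among 11 tested probes of complement and coagulation, 0 passed, 3 were higher and 2 lower at an unadjusted p under 0.05, 2 lay above and 1 below, and the median was -0.44. CCL8, a monocyte chemokine, read 3.75, 2.14, 1.64 and 4.62 in controls. It read 7.34, 4.26, 6.01 and 5.44 under HFCD, and the overlap lay between HFCD array 2 and control array 4. It did not pass adjustment (adjusted p 0.251), and because 1 control array was well above background, no size is given. Of 15 chemokine and receptor probes 0 passed, and 3 were higher and 0 lower at an unadjusted p under 0.05. Their median was 0.12, or 0.27 with slide as a block. The shares over all probes tested were 5.44% higher and 4.55% lower at that level, with 2.96% above and 2.40% below.

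Probes of class I antigen presentation differed by an amount that depended on scaling. TAP1, the peptide pump of the endoplasmic reticulum, read 5.85, 5.35, 5.56 and 5.42 in controls. The HFCD arrays read 6.50, 5.60, 6.42 and 6.89, with HFCD array 2 inside the control range. The difference was 0.81 (adjusted p 0.322), or 0.45 after normexp, and its other probes gave 0.35 and 0.67. PSMB9, a subunit of the immunoproteasome, is read by a dim and a bright probe that differ. The bright one, well above background on all 8 arrays, differed by 0.22 with overlap. The dim one (A_72_P362653) was not well above background in any control and read at least 1.18-fold higher, with means of 2.88 and 4.42. Of 28 tested probes of 12 genes, 0 passed, and the median was 0.31 beside 0.09. At an unadjusted p under 0.05, 5 were higher and 0 lower, and 3 lay above and 0 below. Among all probes tested, 5.44% were higher and 4.55% lower at that level, with 2.96% above and 2.40% below. The count of 5 was 2 without HFCD array 1, 2 without array 3 and 12 without array 2. It was 10 with slide as a block and 1 with the share of spots as a covariate. The share of positive probes was 89.3%, beside 61.9% over all probes, or 75% when arrays were scaled to their 75th percentile. With that scaling the median was 0.10 beside 0.08 over all probes, with 2 higher and 1 lower at an unadjusted p under 0.05. With the share of spots as a covariate it was 0.11 beside 0.00. In class II, 4 probes were tested, 0 passed, 0 were higher and 0 lower at an unadjusted p under 0.05, and the median was 0.11.

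TRAF6, an adaptor behind Toll-like receptors, read 4.69, 4.61, 4.44 and 4.71 in controls. It read 7.84, 4.89, 4.74 and 7.39 under HFCD, high in arrays 1 and 4 and just above the controls in arrays 2 and 3. Its difference was 1.60 (SE 0.59, adjusted p 0.420), and within slides 3.16, 0.20 and 2.82. It was 1.06 without HFCD array 1, and 0.83 both after normexp and with the share of spots as a covariate. TLR8, a sensor of single-stranded RNA, lay higher with no overlap, with 1 control array well above background and so without a size. TNFRSF1B, a receptor for tumour necrosis factor, differed by 1.03 with 2 control arrays well above background, and by 0.27 after normexp, while its other probes gave 0.31 and 0.57. In pattern recognition 21 probes were tested, 0 passed, 3 were higher and 1 lower at an unadjusted p under 0.05, and the median was 0.25, or -0.64, 0.20 and 0.54 within slides. Of 27 cytokine and receptor probes 0 passed, and 3 were higher and 0 lower at that level. Their median was 0.23, or -0.19, 0.28 and 0.48 within slides. The shares over all probes tested were 5.44% higher and 4.55% lower at that level. ADM, a vasodilator peptide, was not well above background in controls and was at least 1.07-fold higher, with means of 2.58 and 4.27. CDK6, a kinase of the cell cycle, was likewise at least 1.18-fold higher, with means of 2.62 and 4.41. HSP90AA1, a chaperone, differed by 0.56 with no overlap, and its other probes by 0.38, 0.34 and 0.28 with overlap.

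Of 10 tested platelet probes, 7 lay lower under HFCD. GUCY1B3, the only probe of all tested that fell, was placed in this list, and lists were chosen with earlier results known. Its place in the list is therefore not a result. GUCY1B3, which with its partner subunit makes cyclic GMP in answer to nitric oxide, read 6.61, 6.87, 6.48 and 6.77 in controls. On the HFCD side it read 4.91, 5.36, 5.31 and 5.21. All HFCD arrays lay below all controls, with array 1 lowest. The adjusted p was 0.0151, and the difference was -1.49 with slide as a block (adjusted p 0.0522) and -1.70, -1.53 and -1.41 within slides. After normexp background correction it was -0.77. This call was also lost with the share of spots as a covariate (0.304), with no filter (0.0522), with all 45 arrays in 1 fit (0.515), without control array 2 (0.0726) or 4 (0.0603), and without HFCD array 1 (0.0909), 3 (0.0722) or 4 (0.0626). GUCY1B3 differed by -1.33 with that covariate and by -1.48 with no filter or all 45 arrays. In the fits without an array that lost the call, the difference lay between -1.52 and -1.39. The probe sequence of GUCY1B3 is given because it is the only probe that fell.
GUCY1B3: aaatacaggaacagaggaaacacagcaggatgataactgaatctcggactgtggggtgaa

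PPBP, a chemokine stored in platelet granules, read 10.03, 10.10, 9.69 and 9.76 in controls. It read 8.61, 8.57, 8.69 and 7.99 under HFCD. All HFCD arrays lay below all controls, with array 4 lowest. The difference was -1.43 (SE 0.25, unadjusted p 0.000102, adjusted p 0.133). PF4, a further granule chemokine, lies outside the naming rule and was chosen after its values were seen because its signal makes up 42% of the list's summed intensity. It differed by -0.84 with no overlap. ITGB3, a chain of the fibrinogen receptor, differed by -0.85 with overlap, and neither passed adjustment. Of 10 tested platelet probes from 10 genes, GUCY1B3 included, 0 rose and 1 fell. At an unadjusted p under 0.05, 0 were higher and 5 lower, and 4 lay wholly below. Among all probes tested, 4.55% were lower at that level and 2.40% lay wholly below. The median of the list was -0.62 beside 0.09, -0.54 with slide as a block, and -0.08, -1.04 and -0.75 within slides. The summed level was 14.48, 15.12, 15.002 and 15.16 on control arrays and 14.30, 14.04, 14.25 and 14.15 on HFCD arrays, which lay below every control. With the share of spots as a covariate the median was -0.44. The part of platelet number in GUCY1B3 was not tested.

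**Figure D3:**
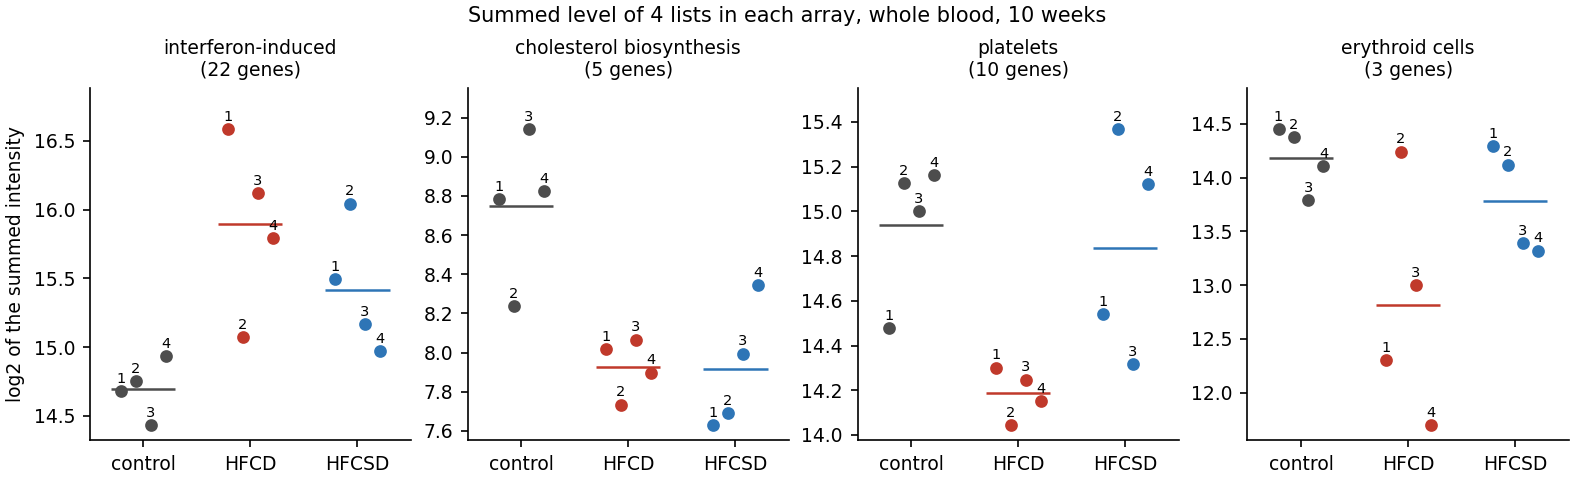
Summed level of 4 lists, as log2 of the summed intensity, with the control, HFCD and HFCSD arrays of 10 weeks as numbered points and lines as group means. Platelet genes sum to 14.04 to 14.30 under HFCD, below every control array.

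F2R, a thrombin receptor, split the HFCD group. In controls it read 5.89, 5.89, 6.16 and 5.95. In HFCD blood it read 2.85, 5.88, 1.77 and 2.67. Array 2 lay just under the lowest control, and the other HFCD arrays, not well above background, lay far below. Because a level under the detection limit is not measured, no size of the difference is given. It did not pass adjustment (adjusted p 0.244). The HFCSD arrays differed by 0.65 from the same controls.

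The probe annotated as HBE1, an embryonic globin chain, was the brightest of the erythroid probes tested. Which globin transcripts this probe reads was not tested. The probe read 14.44, 14.33, 13.77 and 14.08 in controls. HFCD arrays 1 to 4 read 12.26, 14.21, 12.94 and 11.63, with array 2 among the controls and array 4 lowest. The difference was -1.39 (SE 0.45, adjusted p 0.364), and within slides -2.17, -0.75 and -2.30. With the share of spots as a covariate it was -0.75. The HBE1 signal made up 97.4% of the summed intensity of the 3 genes tested, which does not measure its part of the RNA. The summed level was 14.45, 14.38, 13.79 and 14.11 in controls and 12.30, 14.24, 13.002 and 11.69 under HFCD. None of the 3 probes passed, 1 was lower and 0 higher at an unadjusted p under 0.05, and the median was -0.37, or -0.64 with slide as a block and -0.76, -0.75 and -1.17 within slides. For white cell lists, the median was 0.01 for 3 neutrophil probes, 0.19 for 16 probes of T and NK cells, -0.26 for 3 B cell probes and -0.24 for 3 of eosinophils and basophils. With slide as a block it was -0.13 for neutrophils and -0.42 for B cells. No probe of these 4 lists had an unadjusted p under 0.05. Of all probes tested, 5.44% were higher and 4.55% lower at that level. Among 11 monocyte probes 0 passed, 1 was higher and 0 lower at that level, and the median was 0.37, or 0.14 with slide as a block and -0.62, 0.18 and 0.74 within slides. That probe reads CD68, a lysosomal marker of macrophages, which differed by 0.77, while its brighter probe differed by 0.11.

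Further named genes lay lower under HFCD. HCRT, the precursor of the neuropeptide orexin, read 12.04, 12.47, 12.05 and 12.05 in controls. It read 10.503, 10.32, 10.95 and 9.61 under HFCD, with no overlap. The difference was -1.81 (unadjusted p 0.000117, adjusted p 0.133), while the other HCRT probe differed by -0.07. MKRN2 differed by -1.78 with no overlap, and its other probe by -0.14. PLET1 differed by -1.57, ITIH2, a chain of a plasma protease inhibitor, by -1.55, and AQP5, a water channel, by -1.31. CA11, a carbonic anhydrase relative without the enzyme's activity, differed by -1.32 and SOX10, a factor of neural crest cells, by -1.22. All 5 had every HFCD array below every control, and none passed adjustment. COX8H, a subunit of cytochrome c oxidase, differed by -1.35 and by -1.03 on its other probe, both with no overlap. With the share of spots as a covariate the differences of MKRN2, PLET1, ITIH2, AQP5, CA11 and SOX10 were -1.07, -0.94, -0.84, -0.49, -0.80 and -0.54. After normexp those of MKRN2, PLET1, CA11, SOX10 and COX8H were -0.56, -0.54, -0.67, -0.48 and -0.49. RETN, the hormone resistin, differed by -0.99 (-0.52 without HFCD array 3) and PRDX6, a peroxidase, by -0.61, both with overlap, and these 3 genes did not pass either. Over all genes with a symbol, 34 were higher and 43 lower with both an unadjusted p under 0.05 and no overlap, among 1313 genes tested. By probe it was 36 and 47 of 1795. Over all 17766 probes tested, with or without a symbol, no overlap alone held for 2.96% above and 2.40% below.

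No probe of the remaining lists passed adjustment. Each list is given with its tested probes, those higher and lower at an unadjusted p under 0.05, and its median. Among all probes tested, 5.44% were higher and 4.55% lower at that level, with a median difference of 0.09. Metabolic lists were glycolysis (8 probes, 0 higher and 0 lower, median -0.06), the respiratory chain (26 probes, 0 higher and 3 lower, median -0.01) and antioxidant and redox genes (18 probes, 0 higher and 3 lower, median -0.35). Lists of protein synthesis and turnover were cytosolic ribosomal proteins (64 probes, 0 higher and 4 lower, median 0.12), the proteasome (10 probes, 0 higher and 0 lower, median 0.03), heat shock proteins and chaperones (16 probes, 2 higher and 0 lower, median 0.25) and protease inhibitors (17 probes, 0 higher and 1 lower, median 0.15). Transport was covered by solute carriers (8 probes, 0 higher and 1 lower, median 0.09). Tissue and cell lists were smooth muscle and vessel wall (14 probes, 0 higher and 2 lower, median -0.48), skeletal muscle (7 probes, 0 higher and 1 lower, median -0.51), liver (3 probes, 0 higher and 0 lower, median -0.67), adipose tissue (5 probes, 0 higher and 0 lower, median -0.15) and proliferating cells (4 probes, 0 higher and 0 lower, median -0.11). CNN1, a smooth muscle protein, differed by -1.12 and MGP, an inhibitor of calcification, by -1.02, both with overlap. MGP was -0.62 without control array 1 and -1.61 with the share of spots as a covariate, and CNN1 was -0.58 after normexp. With slide as a block the median was 0.04 for glycolysis, 0.03 for the respiratory chain and 0.06 for the proteasome. Within slides, medians of both signs were seen for glycolysis, the respiratory chain, ribosomal proteins, the proteasome, protease inhibitors, solute carriers, adipose tissue and proliferating cells, and among earlier lists for lipid storage, chemokines, neutrophils, and eosinophils and basophils.

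Among the 3 genes with the largest difference in each list, 7 further ones are given that had an unadjusted p under 0.05, and in all of them the groups overlapped and adjustment was not passed. UCP3, a mitochondrial carrier (adjusted p 0.466), and IL27, a cytokine subunit (adjusted p 0.484), lay higher, each with 1 control array well above background and so without a size. HSPH1, a chaperone, differed by 0.68 (adjusted p 0.440) with 2 control arrays well above background, and by 0.45 on its brighter probe. The 0.68 was 0.18 after normexp and 0.40 with the share of spots as a covariate. RPL37, a ribosomal protein, differed by -1.74 (adjusted p 0.432), or -0.67 with the share of spots as a covariate and -0.66 after normexp, while its brightest probe differed by 0.43. TLR10, a Toll-like receptor, differed by -0.83 (adjusted p 0.470), TNNI2, a troponin of fast muscle, by -0.55 (adjusted p 0.420) and COX7A2, a subunit of cytochrome c oxidase, by -0.48 (adjusted p 0.464), or -0.31 without HFCD array 4. After normexp TLR10 differed by -0.40 and TNNI2 by -0.30.

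By the criterion of the methods, a fold above 2 or below 0.5 with the methods' t-test at an unadjusted p under 0.05, 107 probes were higher (0.602%) and 199 lower (1.12%). Of these, 64 and 153 had no overlap between groups. The sum of 306 was 862 without HFCD array 2 and 90 after normexp background correction. It was 626 with a weaker background flag (306 higher and 320 lower) and 652 with no filter (316 higher and 336 lower).

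The diet with sucrose shares its controls with HFCD, so the values stand side by side. HFCSD minus control was 1.98 for ABCA1, 1.89 for A_72_P072951 and 2.06 for A_72_P202657, against 2.38, 2.35 and 2.58 for HFCD. For GUCY1B3 it was -0.16 against -1.48, and for SQLE -1.57 against -1.44. The interferon list had a median of 0.37 under HFCSD and 0.94 under HFCD, and platelets -0.07 and -0.62. Set directly against each other, HFCSD and HFCD differed in 0 of 17916 probes by limma after adjustment (0%), with 551 higher and 335 lower at an unadjusted p under 0.05 and a smallest adjusted p of 0.209. For GUCY1B3 that test gave an adjusted p of 0.209. Without HFCD array 2, 1 probe passed.

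Later periods give the size of the HFCD difference at 19 and 27 weeks. ABCA1 differed by 2.38 at 10 weeks, 2.27 at 19 weeks and 2.42 at 27 weeks. Of the unnamed probes, A_72_P072951 differed by 2.07 at 19 weeks and 2.24 at 27 weeks, and A_72_P202657 by 2.82 and 2.96. GUCY1B3 was -1.48 at 10 weeks, -0.53 at 19 weeks and -0.60 at 27 weeks, and PPBP was -1.43, -1.75 and -1.66. The interferon list had medians of 0.94, 0.80 and 0.93, and the platelet list -0.62, -1.29 and -0.83. The change from 10 to 19 weeks in the HFCD difference passed in 0 of 18351 probes by limma (0%), with 492 higher and 1182 lower at an unadjusted p under 0.05 and a smallest adjusted p of 0.0502. Without control array 1, 1 probe passed. The methods describe repeated sampling of the pigs, and because the labels do not tie arrays to pigs, the fit treats arrays of different periods as independent. From 10 to 27 weeks, 0 of 19141 probes passed by limma (0%), with 281 higher and 240 lower and a smallest adjusted p of 0.955. The median of that change was -0.14 over all probes tested. For GUCY1B3 the adjusted p was 0.547 and 0.955 in these tests. The methods' t-test was not run on these differences, nor on the difference between diets. At 19 weeks, 3 of 4 control arrays were scanned on a day other than that of the remaining control and the 4 HFCD arrays, so scan day and diet cannot be fully told apart in that period. The periods were scanned on different days, and the 10-week arrays on 1 day.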

How the data were processed

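The authors scanned 1-colour porcine arrays and deposited spot intensities from Feature Extraction (10.5.1.1 per the file headers, scanner G2505C), on a linear scale with the background subtracted within each array and no scaling between arrays. The deposited files also hold the raw mean signal and local background intensities of each spot, used only for normexp correction, and flags of the software, such as well above background. The series table that the authors deposited holds quantile normalized intensities on a linear scale, used only as an alternative after log2.

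After log2, the 43803 probe spots of the 45 arrays were quantile normalized, spots the software marked as outliers were left out (4 to 31 on each of the 8 arrays), and the spots of the 50 probes with several were averaged. No spot of the 8 arrays was saturated. A noise estimate stood in for the signal of 12555 to 19015 spots an array, and 15494 to 23344 were well above background, which limits precision for dim probes. A probe was tested if it was well above background on every usable array of control or of HFCD, with at least 2 usable arrays a group, which 17766 of 43603 met. The limma fit held the 12 whole blood arrays of 10 weeks, and that of the changes between periods all 33 whole blood arrays. Tests were two-sided. The methods' t-test was run beside limma, and the share of spots was tested by exact permutation. The software was R 4.3.3 with limma 3.58.1 (data.table was version 1.17.8) and Python 3.11.15 with pandas 2.3.3, numpy 2.4.6 and matplotlib 3.10.9. The code was checked on simulated data.

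Members and lists were chosen with earlier results of these data known. RefSeq accessions (2001 probes) and the descriptions in the array annotation gave 1 symbol to 3241 probes of 2348 genes, 7 probes had several symbols and 40355 none. Of the 3241, 149 were named by the full protein name, a step added after values had been seen and applied to all list members whatever their direction. Genes were named by a rule: (a) probes past adjustment, with at most 2 unnamed ones that rose and 2 that fell; (b) the 12 largest rises and 12 largest falls among genes with 1 symbol, an unadjusted p under 0.05 and no overlap; (c) up to 3 genes of each list with the largest difference; (d) ABCA1, MX1, SERPING1 and SQLE, which the study names; (e) defining markers of cell types without a tested member. The rule lets genes go unnamed. Under (c), those with an unadjusted p under 0.05 are given, apart from withheld ones, and which others to give was chosen after values had been seen, as were the exceptions A_72_P034336, OAS1 and PF4. Some genes are withheld for evaluation and are not reported here by name, while counts and medians of lists include them.

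For a summed level, the tested probes of a gene were averaged on the log2 scale and the genes then summed on the linear scale. Lists were described by counts and medians and were not tested as sets. Alternatives were scaling to the 75th percentile, quantile normalization within the fit, normexp with an offset of 50, the series table, a weaker background flag, no filter, a filter on every array of both groups, blocks for replicate number and slide, the share of spots as a covariate, fits of 8 or 45 arrays, the methods' t-test and each array left out in turn. Those for list medians were added after the data had been seen.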

Additional observations from a re-analysis of the deposited data

Results flagged for a closer look

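In 8 of 142 groups of 4 arrays examined, 1 array lay far from the other 3 by Dixon's criterion at its 95% critical value, where chance alone marks about 1 in 20 groups. Each gene is read here on 1 probe. Among controls, HCRT (A_72_P261732) read 12.47 on array 2 and 12.04 to 12.05 on the others, and SREBF1 (A_72_P326973) read 12.22 on array 2 and 11.03 to 11.11 on the others. The other SREBF1 probe read 12.18, 12.45, 10.68 and 11.93 on control arrays 1 to 4. The dim PSMB9 probe (A_72_P362653) read 1.58 on control array 3, against 3.16 to 3.46, with no control array well above background for it, so that these are not measured levels. The summed level of liver genes was 10.21 on control array 2, against 8.73 to 8.94. Among HFCD arrays, A_72_P202657 read 6.35 on array 2, against 7.39 to 7.52, and SERPING1 (A_72_P226002) read 9.502 on array 2, against 10.92 to 11.17. PF4 read 13.07 on HFCD array 3, against 12.81 to 12.85. COX7A2 read 10.71 on HFCD array 4, against 11.34 to 11.47.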

How the results depend on the processing

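The count of 5 probes past adjustment was 2 with no filter, 3 when probes had to be well above background on every array of both groups, 2 with the share of spots as a covariate, 8 with only the 8 arrays in the fit (3 higher and 5 lower) and 0 by the methods' t-test. It was 5 with 75th percentile scaling, quantile normalization within the fit or the series table, 5 with slide as a block (4 of them shared, without GUCY1B3), 4 with normexp or the weaker flag, and 6 with all 45 arrays (4 shared). With each array left out in turn it ran from 2 (without HFCD array 1, and also without array 3) to 7 (without HFCD array 2). The count of 0 for HFCSD against HFCD ran from 0 to 1 (without HFCD array 2). For the change from 10 to 19 weeks, 0 became 1 with normexp, and ran from 0 to 1 (without control array 1) with arrays left out. For the change to 27 weeks, 0 became 1 with the weaker flag and 1 with no filter, and stayed at 0 with arrays left out. The count of 306 by the methods' criterion was 90 with normexp, 626 with the weaker flag and 652 with no filter, and ran from 220 (without HFCD array 1) to 862 (without HFCD array 2). The 2 looser filters let more probes be tested, and for the other changed counts the cause was not tested. The difference of 6.87 points in the share of spots ran from 5.01 (without control array 3) to 8.43 (without HFCD array 2, exact permutation p 0.0286).

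For 59 named probes, direction and side of the threshold were kept in 678 of 692 results under other settings, with 11 no longer past it, 2 newly past it and 1 turned in direction. With arrays left out, 458 of 472 were kept, 12 were no longer past it, 1 was newly past it (F2R without HFCD array 2, where no HFCD array is well above background, so the test is void) and 1 turned. Both turns were SREBF1, at 0.26 with the share as a covariate and from -1.01 (without HFCD array 2) to 0.0057 (without HFCD array 4), and the cause was not tested. Of the 59, the log2 difference moved by over 1.5 times or turned in 32 with normexp, 17 with the share as a covariate, 1 with slide as a block and at most 3 with any array left out. The interferon median of 0.94 was 0.58 with normexp. The cholesterol synthesis median of -0.83 was -0.34 with normexp, -0.63 with the weaker flag, -0.43 with no filter and -0.65 without HFCD array 4. That of platelets (-0.62) was -0.44 with the share as a covariate, -0.78 without control array 1 and -0.51 without control array 2.

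The labels tie control and HFCD arrays by a number only, and the arrays numbered 1, 2 and 4 also share a slide. Deviations of same-numbered arrays correlated at 0.178, 0.602, -0.220 and 0.110 for numbers 1 to 4, and not every array correlated best with its own number. A block for the number left the count at 5, the same probes. Scan day as a block was not run at 10 weeks, where all arrays were scanned on 1 day. Signal over background limits what can be seen: 25837 probes were not tested, and 2769 were tested through HFCD arrays only and 130 through control arrays only.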
